A study of Mus musculus with 36 samples.

Results

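A set of 10 transcription factor genes known for patterning the midbrain and the isthmus was followed through 18 RNA-seq libraries of the mouse embryonic forebrain: *Pax2*, *Pax5*, *Pax8*, *Pax3*, *Pax7*, *En1*, *En2*, *Gbx2*, *Irx3* and *Barhl2*. These 10 genes, of 46603 in the count tables, were selected by name, and 1 of them, *Pax8*, because it was among the largest falls between cKO and Ctrl embryos at E10.5, so the E10.5 values are given as a description without a test. Neocortices were taken at E12.5 from C57Bl/6J embryos of 4 *Chd8* genotypes, +/+, +/-, neo/neo and neo/-, with 3 libraries of 1 embryo each. *Chd8* encodes a chromatin remodeller. A selection cassette in the neo allele lowers *Chd8* expression, neo/neo embryos are the mild hypomorphs, and neo/- embryos, the severe hypomorphs, combine 1 neo allele with the null allele that +/- embryos also carry. At E10.5, telencephalic vesicles were taken from cKO embryos (sox1-Cre; *Chd8* f/f), in which Cre deletes floxed *Chd8* in early neural progenitors, and from Ctrl embryos that combined *Chd8* f/f and *Chd8* f/+, with 3 libraries a group and 2 embryos pooled per library. The samples of a group came from different litters and both sexes were used.

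In the neural tube, the isthmus is the constriction between midbrain and hindbrain, and it secretes FGF8 and WNT1 to pattern the tissue on either side. OTX2 in front and GBX2 behind place this boundary, PAX2 precedes PAX5 and PAX8 there, and EN1 and EN2 maintain the midbrain and cerebellar fates that it specifies. PAX3 and PAX7 mark dorsal progenitors and neural crest, IRX3 marks neural tissue behind the anterior forebrain, and BARHL2 acts in the diencephalon. GBX2 is also known from the thalamus and the ventral telencephalon, and BARHL2 from the borders of the cortex. The telencephalon lies in front of all these fields and depends on EMX2 and LHX2.

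The dissected tissue held telencephalic transcripts, few hindbrain transcripts and transcripts of other tissue. *Lhx2* and *Emx2*, factors of the cortical ventricular zone, had lowest levels of 241 and 109.7 CPM over the 18 libraries, where CPM are read counts scaled by library total and TMM factor. The summed level of 19 hindbrain and spinal cord factors lay between 2.91 and 4.48 CPM at E10.5 and between 7.30 and 11.8 CPM at E12.5. *Chd8* itself was lower in every mutant library than in any control library of its stage. At E12.5 it read 236 to 241 CPM in +/+, 165 to 171 CPM in +/-, 201 to 212 CPM in neo/neo and 142 to 158 CPM in neo/-. Its reads over the whole gene were thus higher in neo/neo than in +/-. At E10.5 *Chd8* read 159 to 184 CPM in Ctrl and 116 to 125 CPM in cKO. Total counts ranged from 38774591 to 61051667 over the E12.5 libraries and from 49632937 to 68488879 over those of E10.5.

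One library stood apart from the other 11 at E12.5, namely replicate 2 of *Chd8* +/-. Of the 10 factors, 7 had their highest E12.5 value in it. There the summed level of 17 other diencephalic factors was 544 CPM, against 266 to 389 CPM in the other 11 libraries, and the thalamic and habenular factor *Tcf7l2* stood at 160 CPM against 24.4 to 38.0 CPM. The 7 head mesenchyme markers summed to 1122 CPM in this library and to between 514 and 800 CPM in the others. The 6 telencephalon markers summed to 1015 CPM there, below the 1139 to 1327 CPM of the others. None of the 7 mesenchyme markers was at 0 in any library. The part of other tissue in the results below was not tested, and the E12.5 tests are therefore given with and without this library. In bulk tissue, fewer cells of a kind and less RNA per cell cannot be told apart.

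**Figure D1:**
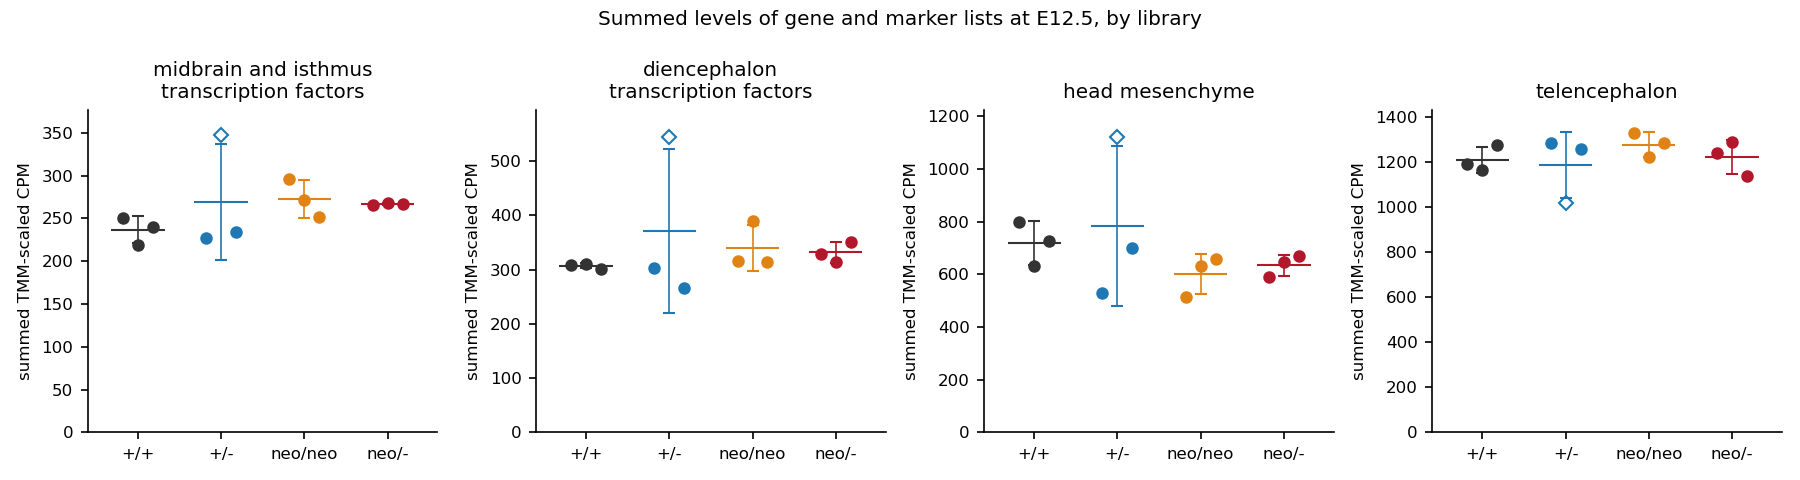
Summed TMM-scaled CPM (y axis) of the midbrain and isthmus list, the diencephalon list and the head mesenchyme and telencephalon markers in each E12.5 library, by genotype (x axis), with lines for the mean and bars for the SD (n = 3). The open diamond is +/- replicate 2, which lies above the other 11 libraries in the first 3 panels and below them in the fourth.

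The stretch of RefSeq promoter before the start of transcription (build GRCm38.p6) is printed for 3 factors. They are *Pax8* and *Barhl2*, which had the lowest E10.5 ratios, and *Gbx2*, which read lower in all hypomorph libraries than in +/+ at E12.5. Capitals mark GTCACGC, a core of the sequence bound by the paired domain of the PAX proteins. The *Pax8* stretch is chr2:24475600-24475849, minus strand, the *Barhl2* stretch chr5:106458167-106458416, minus strand, and the *Gbx2* stretch chr1:89931180-89931426, minus strand. None of them reaches into the exons of its gene in the count table.
Pax8: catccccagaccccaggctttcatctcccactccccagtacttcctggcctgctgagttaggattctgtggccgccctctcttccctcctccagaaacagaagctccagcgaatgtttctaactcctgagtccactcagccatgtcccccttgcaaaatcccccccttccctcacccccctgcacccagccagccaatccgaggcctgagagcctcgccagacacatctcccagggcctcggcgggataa
Barhl2: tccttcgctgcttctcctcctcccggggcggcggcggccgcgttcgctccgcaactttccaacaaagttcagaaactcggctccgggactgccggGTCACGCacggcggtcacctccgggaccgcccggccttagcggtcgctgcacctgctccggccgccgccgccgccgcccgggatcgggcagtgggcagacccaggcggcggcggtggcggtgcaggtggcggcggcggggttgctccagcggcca
Gbx2: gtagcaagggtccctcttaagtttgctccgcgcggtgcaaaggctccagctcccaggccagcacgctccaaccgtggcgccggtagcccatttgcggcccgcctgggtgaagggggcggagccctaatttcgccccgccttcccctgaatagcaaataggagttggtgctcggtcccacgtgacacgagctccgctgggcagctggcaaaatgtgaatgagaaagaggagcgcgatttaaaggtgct
Promoters were held for 8 of the 10 factors, all but *Pax3* and *En2*, with 3 starts for *Pax2*. In the 250 bases before each of these 10 starts, GTCACGC or its reverse complement GCGTGAC was found once, in *Barhl2*, and 1.78% of 32851 mouse promoters of that length held it. Neither the homeodomain core TAATTA, its own reverse complement, nor the TCF/LEF core TTCAAAG or its reverse complement CTTTGAA was found before any of the 10 starts, and 4.84% and 4.46% of all promoters held them. G and C made up between 52.8% and 74.8% of the bases before the 10 starts, against a median of 52.4% over all promoters. A match is a description of the letters only.

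The order of levels differed between the stages. Per kilobase of exon, *Barhl2* led at E12.5 in +/+ neocortex with 6.94 ± 0.35 CPM per kb (SD, n = 3), followed by *Gbx2* with 1.60 ± 0.10, *Irx3* with 0.425 ± 0.029 and *Pax5* with 0.274 ± 0.033. *Pax7*, *Pax2*, *Pax3* and *Pax8* lay between 0.247 and 0.0646 CPM per kb, and *En2* and *En1* closed the order below 0.006. The libraries of *Pax5*, *Pax7*, *Pax2* and *En2* overlapped with those of the next gene in this order, and those of *Barhl2*, *Gbx2*, *Irx3*, *Pax3* and *Pax8* did not. In Ctrl vesicles at E10.5 the order was *Irx3* with 7.52 ± 2.25 CPM per kb, *Pax7* with 4.08 ± 1.33, *Pax3* with 3.33 ± 1.05 and *Barhl2* with 2.61 ± 1.24, then *Pax5*, *Pax2*, *Gbx2*, *Pax8*, *En1* and *En2*. Here *Pax7* and *Pax3*, *Pax3* and *Barhl2*, *Pax2* and *Gbx2*, *Gbx2* and *Pax8*, and *En1* and *En2* overlapped between neighbours. Stage, dissection and scaling differ between both sets of libraries, so the levels were not tested against each other.

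The isthmic paired-box genes *Pax2*, *Pax5* and *Pax8* were low at E12.5. *Pax5*, the best expressed of the 3 in CPM, read 2.09, 2.63 and 2.55 CPM in +/+ and 2.24, 2.22 and 2.02 CPM in +/- libraries. It read 0.845, 2.59 and 1.94 CPM in neo/neo and 1.80, 1.14 and 1.70 CPM in neo/-. All neo/- libraries lay below all +/+ libraries, and 33.3% of all genes tested had no overlap between these groups. By contrast, neo/neo overlapped with +/+ and its replicate 1 was the lowest of the 12. *Pax8* stood at 0.313, 0.498 and 0.364 CPM in +/+ libraries and at 0.0704, 0.393 and 0.358 CPM in neo/neo, where replicate 1 held 3 counts. Over the 12 libraries *Pax8* had only between 3 and 24 counts. In +/- and neo/- libraries *Pax8* lay between 0.238 and 0.398 CPM, inside or below the +/+ range. *Pax2* stood at 0.430, 0.569 and 1.58 CPM in +/+, so that replicate 3 set the mean, and between 0.164 and 0.852 CPM in the 9 mutant libraries. The lowest library for *Pax2*, too, was neo/neo replicate 1, in which the organiser signal *Fgf17* read 8.15 CPM against 18.1 to 26.3 CPM in the other 11. Over the 12 libraries the log2 CPM of *Pax5* and *Pax8* had a Pearson r of 0.77 and that of *Pax2* and *Pax8* an r of 0.70, and over the 11 libraries without +/- replicate 2 these were 0.77 and 0.70. The pairs share libraries, depth and scaling, and are a description.

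*Pax3* and *Pax7*, the dorsal pair, were raised in the +/- library that stood apart. *Pax3* read 0.743, 0.616 and 0.792 CPM in +/+, 0.574, 3.66 and 0.630 CPM in +/-, 1.24, 1.41 and 0.791 CPM in neo/neo and 0.909, 0.729 and 0.902 CPM in neo/-. Of the 3 neo/neo libraries, 2 lay above all +/+ libraries, and the other was within their range. *Pax7* read 1.70, 1.42 and 1.22 CPM in +/+, 1.07, 3.36 and 1.07 CPM in +/-, 1.41, 1.36 and 1.04 CPM in neo/neo and 0.996, 0.889 and 1.07 CPM in neo/-. Every neo/- library was below every +/+ library for *Pax7*, where 33.3% of all genes tested had no overlap between these groups.

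The engrailed genes were close to undetected and did not pass the filter on low counts at either stage. *En1* had 64 counts in +/- replicate 2 and between 0 and 5 counts in each of the other 11 E12.5 libraries, 13 counts in all. *En2* had between 0 and 4 counts in every E12.5 library and was not raised in that way in +/- replicate 2, with 4 counts there against at most 3 elsewhere. At E10.5 *En1* had between 2 and 9 counts and *En2* between 1 and 6. No fold change is given for either gene, and differences between groups of these sizes were not detectable at this depth.

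*Gbx2*, the isthmic partner of *Otx2*, read lower in both hypomorphs. With all 12 libraries in the fit, it was not called in either (adjusted p = 0.403 in each, edgeR). It read 3.31, 3.72 and 3.40 CPM in +/+, 2.35, 2.18 and 2.30 CPM in neo/neo and 2.77, 1.62 and 2.50 CPM in neo/-, so that all 6 hypomorph libraries lay below all 3 +/+ libraries. Groups without overlap were found for 26% of all genes tested in neo/neo against +/+ and for 33.3% in neo/-. Heterozygotes read 3.10, 9.17 and 2.92 CPM, with the high value in replicate 2. Of the 2177 exonic bases of *Gbx2*, 946 are shared with the antisense gene *D130058E05Rik*, and since no strand setting was recorded for the counting, reads of the pair cannot be told apart there. The same holds for smaller parts of 3 other factors, with 636 and 125 of the 8853 exonic bases of *Pax5* shared with the antisense genes *5730488B01Rik* and *Gm12462*, 367 of the 6061 of *Pax8* with *Gm13415* and 124 of the 2611 of *Irx3* with *Irx3os*.

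*Irx3* read higher in neo/neo, without being called with all 12 libraries, and *Barhl2* overlapped across genotypes. *Irx3* read 1.19, 1.04 and 1.09 CPM in +/+ and 2.44, 2.00 and 1.98 CPM in neo/neo, without overlap, as held for 26% of all genes tested. In neo/- libraries *Irx3* read 1.08, 1.58 and 2.62 CPM, the lowest of them within the +/+ range, and in +/- libraries 1.30, 9.03 and 1.18 CPM. *Barhl2* lay between 12.3 and 23.4 CPM in the 12 libraries, with its highest value in +/- replicate 2 and overlap between all genotypes.

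**Figure D2:**
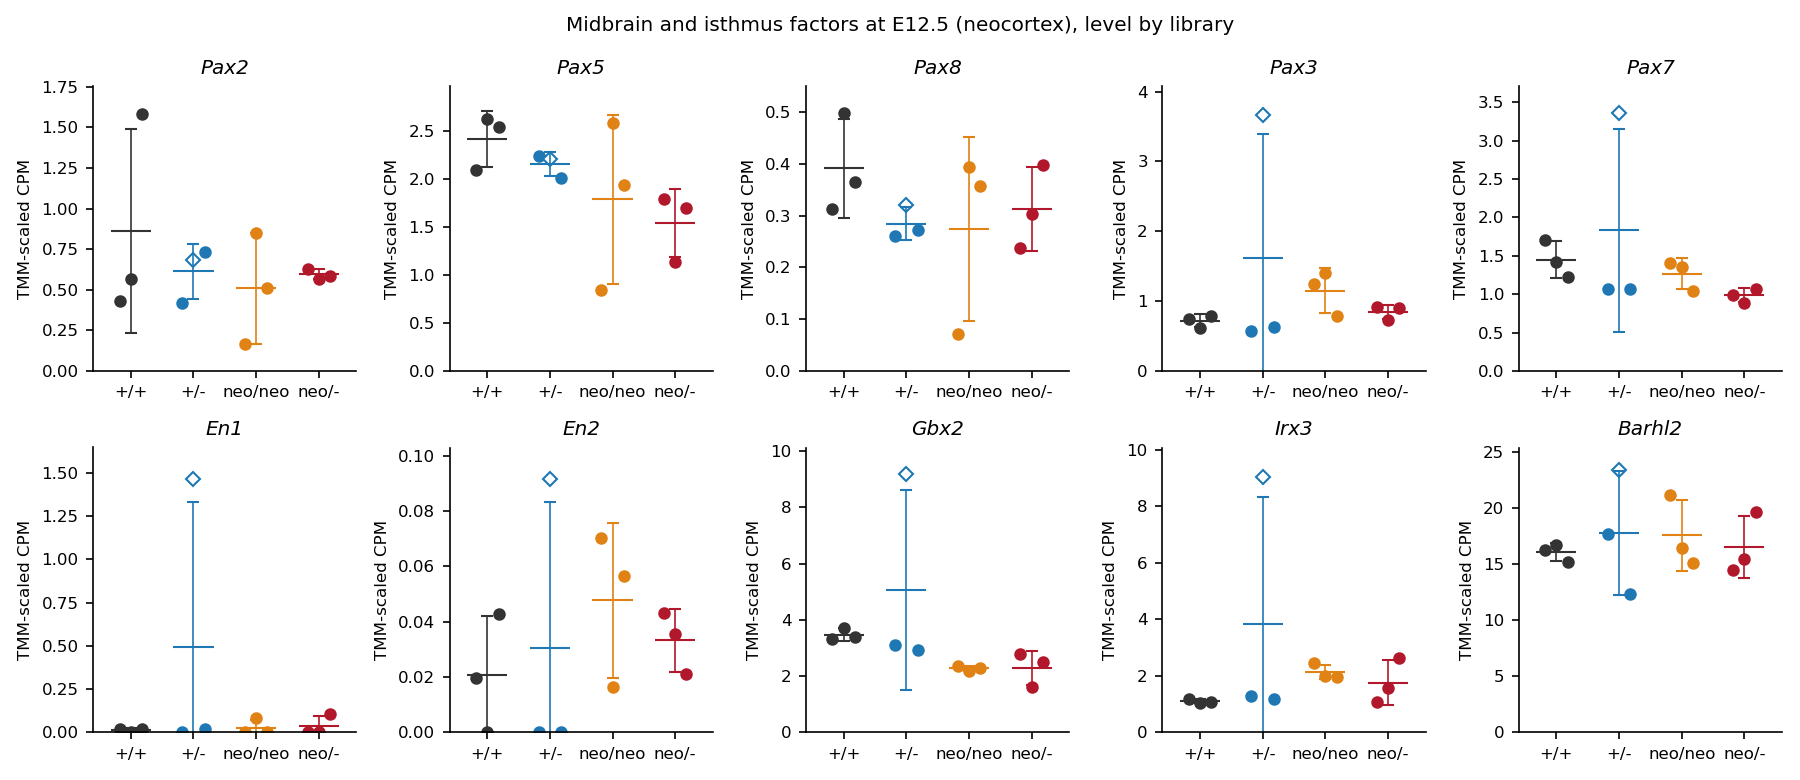
TMM-scaled CPM (y axis, linear) of each of the 10 factors in every E12.5 library, by genotype (x axis). Points are libraries, lines group means, bars SD (n = 3) and the open diamond +/- replicate 2. *Gbx2* is lower in all neo/neo and neo/- libraries than in +/+, and *Irx3* is higher in all neo/neo libraries. Neither was called with all 12 libraries fitted. Of all genes tested, 26% had no overlap with +/+ in neo/neo and 33.3% in neo/-.

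With all 12 libraries in the fit, none of the 8 factors that passed the filter was called by edgeR's quasi-likelihood test (adjusted p under 0.05) in any E12.5 comparison. Against +/+, the share of all genes tested that was called was 8.16% for neo/neo, 11.5% for neo/- and 0.0213% for +/-. The unadjusted p was under 0.05 for 0 of the 8 factors in neo/neo, 1 in neo/- and 1 in +/-. DESeq2 also called 0 in each. It gave no adjusted p for *Pax8* in any of them, for *Pax2* in either hypomorph and for *Pax3* in neo/neo. The smallest adjusted p of edgeR was 0.403 in neo/neo, 0.188 in neo/-, for *Pax5*, and 0.790 in +/-. Of the 8 factors, 2 had groups without overlap in neo/neo against +/+ (*Irx3* higher, *Gbx2* lower), where 26% of all genes tested did not overlap. In neo/- against +/+ this held for 3, *Pax5*, *Pax7* and *Gbx2*, all lower, against 33.3% of all genes. Both counts are near the background.

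In the fit without +/- replicate 2, *Gbx2* was called lower in both hypomorphs and *Irx3* higher in neo/neo. That library, in which both genes read highest at E12.5, was left out after its values had been seen. The log2 fold change of *Gbx2* in neo/neo was -0.61 ± 0.16 (SE; adjusted p = 0.0331, edgeR; 0.657-fold), and with all 12 libraries it was -0.60 ± 0.41 (adjusted p = 0.403). In neo/-, *Gbx2* was lower by -0.60 ± 0.16 (adjusted p = 0.0274, edgeR; 0.659-fold), against an adjusted p of 0.403 with all libraries. *Irx3* was higher in neo/neo by 0.94 ± 0.25 (adjusted p = 0.0333, edgeR; 1.92-fold), and by 0.95 ± 0.79 (adjusted p = 0.506) with all libraries. The fold changes of both genes hardly moved and their standard errors became smaller, since the 4 genotypes share 1 estimate of the spread. In neo/-, *Irx3* had a log2 fold change of 0.67 ± 0.25 that did not pass the test (adjusted p = 0.105, edgeR). In this fit 2 of 8 factors were called in neo/neo, where 9.03% of all genes tested were called. In neo/- 1 of 8 was called, where 12.3% of all genes were, so the count in neo/- is near the background.

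The other factors did not pass the test in this fit. *Pax3* was at 0.68 ± 0.22 in neo/neo (adjusted p = 0.0718, edgeR), and *Pax7* at -0.56 ± 0.18 in neo/- (adjusted p = 0.0611, edgeR). *Pax5* was at -0.39 ± 0.30 in neo/neo and -0.65 ± 0.31 in neo/- (adjusted p = 0.451 and 0.203, edgeR). *Pax8* was at -0.42 ± 0.41 and -0.30 ± 0.41, *Pax2* at -0.68 ± 0.55 and -0.53 ± 0.55, and *Barhl2* at 0.13 ± 0.17 and 0.05 ± 0.17, each in neo/neo and then neo/-. When only the libraries of +/+ and 1 hypomorph were fitted, *Gbx2* and *Irx3* were called in neo/neo (adjusted p = 0.0436 and 0.0271, edgeR; 2.35% of all genes called). In neo/- that fit called *Gbx2* and *Pax5* (adjusted p = 0.0347 and 0.0312, edgeR; 14.7% of all genes called).

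**Figure D3:**
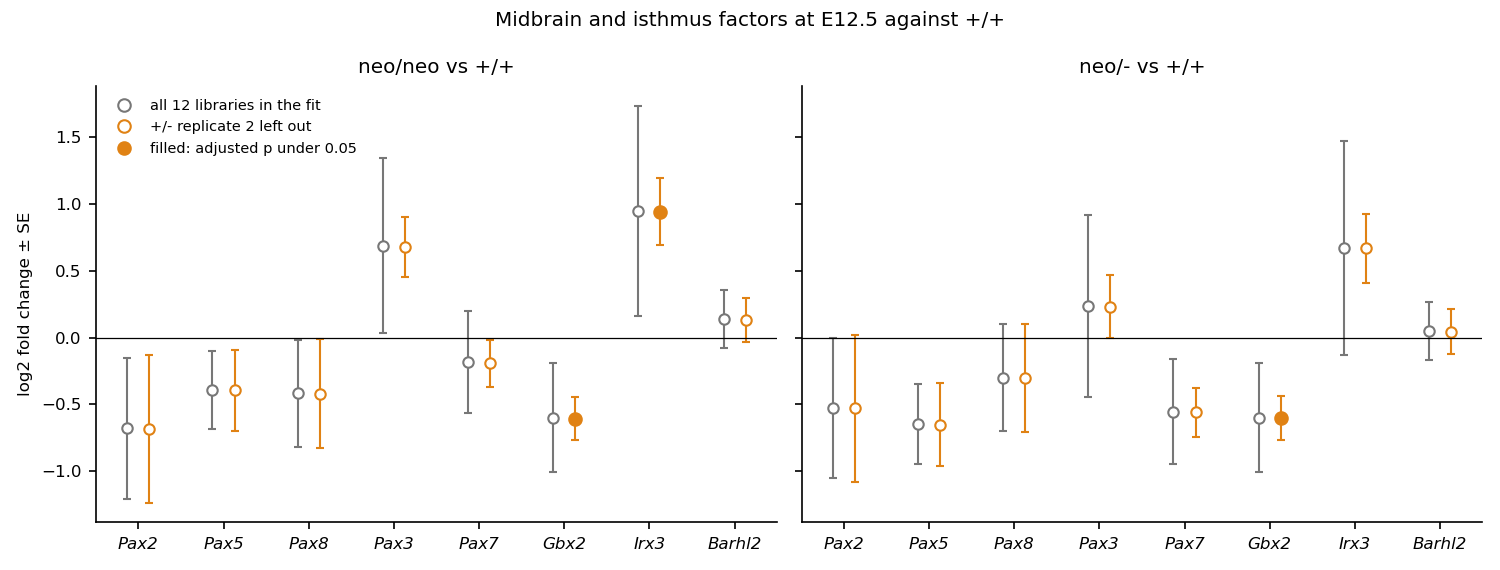
Log2 fold change with its SE (y axis) of the 8 factors that passed the filter (x axis) in neo/neo and in neo/- against +/+, with all 12 libraries fitted (grey) and without +/- replicate 2 (orange). Filled points have an adjusted p under 0.05 and are *Gbx2* in both comparisons and *Irx3* in neo/neo.

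The heterozygous values rested on the library that stood apart. *Irx3* had a log2 fold change of 1.79 in +/- against +/+ with it and of 0.16 without it, *Pax3* of 1.17 and -0.25, *Gbx2* of 0.55 and -0.20, and *Pax7* of 0.34 and -0.43. *Pax2*, *Pax5* and *Pax8* lay between -0.47 and -0.16 with it and between -0.54 and -0.18 without it. None was called in either fit.

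No factor was called between neo/neo and +/- or between neo/- and neo/neo, with or without +/- replicate 2, and neo/- was not compared with +/-. In neo/neo against +/-, 5.28% of all genes tested were called and *Gbx2* had a log2 fold change of -1.15 ± 0.40 (adjusted p = 0.124, edgeR). Without +/- replicate 2, 690 of the 19104 genes tested were called and *Gbx2* was at -0.40 ± 0.18 (adjusted p = 0.210, edgeR). *Irx3* was at -0.84 ± 0.72 in that comparison and at 0.79 ± 0.28 without the library (adjusted p = 0.526 and 0.121, edgeR). *Pax3* turned from -0.49 ± 0.60 to 0.93 ± 0.27 without the library (adjusted p = 0.672 and 0.0628, edgeR), the smallest adjusted p of the 8 factors in that fit. *Pax7* turned from -0.53 ± 0.38 to 0.24 ± 0.21 and *Barhl2* from -0.01 ± 0.22 to 0.23 ± 0.19. In neo/- against neo/neo, 0.0159% of all genes were called, and 0.0157% without +/- replicate 2. There *Gbx2* was at 0.00 ± 0.42 and *Irx3* at -0.28 ± 0.74 (adjusted p = 0.999 and 0.930, edgeR), so a difference of *Irx3* between the hypomorphs was not shown. Over these 2 comparisons the unadjusted p was under 0.05 for 1 factor in neo/neo against +/- and for 0 in neo/- against neo/neo, and for 3 and 0 without +/- replicate 2. DESeq2 called 0 in both, and gave no adjusted p for *Pax8* in either and for *Pax2* in neo/neo against +/-.

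Signals and neighbouring factors of the same fields were also tested at E12.5. Of all genes tested, edgeR called 8.16% in neo/neo, 11.5% in neo/- and 0.0213% in +/-. Without +/- replicate 2 it called 9.03% in neo/neo and 12.3% in neo/-. The counts of the lists are to be read beside these shares. Of 18 isthmic organiser signals and feedback genes, 17 were tested, and edgeR called 1 higher in neo/neo, *Sp5*, a WNT-responsive zinc finger factor (log2 fold change 0.49 ± 0.13, adjusted p = 0.0331, and 0.0322 without +/- replicate 2), and 0 in neo/- or +/- with or without that library. *Fgf8* read 2.17, 1.66 and 2.18 CPM in +/+ and 1.69, 3.73 and 3.32 CPM in neo/neo, and its change of 0.56 ± 0.25 did not pass the test (adjusted p = 0.189, and 0.208 without +/- replicate 2, edgeR). *Fgf17* and *Wnt1* were at -0.07 ± 0.34 and -0.43 ± 0.61 in neo/neo (adjusted p = 0.933 and 0.717, and 0.932 and 0.718 without that library, edgeR), and *Wnt1* stayed at or below 0.313 CPM in all 12 libraries. The median log2 fold change of the tested organiser genes was 0.13 in neo/neo and 0.04 in neo/-, against 0.01 and 0.00 over all genes tested.

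Of 20 other midbrain and isthmus factors, 17 were tested and 0 were called in neo/neo, neo/- or +/- with all libraries. The shares of all genes called in these comparisons were 8.16%, 11.5% and 0.0213%. *Otx2*, the anterior partner of *Gbx2*, read 52.7, 48.3 and 48.0 CPM in +/+ and 61.8, 55.8 and 66.4 CPM in neo/-, without overlap. Its change of 0.31 ± 0.17 in neo/- did not pass the test with all libraries (adjusted p = 0.277, edgeR) and did without +/- replicate 2 (0.31 ± 0.09, adjusted p = 0.0335). In neo/neo *Otx2* was at 0.25 ± 0.09 without that library (adjusted p = 0.0850, edgeR). *Lmx1b*, a factor of the isthmus and of midbrain dopaminergic progenitors, read 9.40 CPM in +/- replicate 2 and 0.861 to 3.42 CPM in the other 11 libraries. *Dmbx1*, a midbrain homeobox factor, read 1.85 CPM there and 0.214 to 0.567 CPM elsewhere. The median log2 fold change of the 17 factors was 0.09 in neo/neo and 0.20 in neo/-, and the same to 2 decimals without +/- replicate 2.

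Of 17 diencephalic factors, 16 were tested, and with all libraries 0 were called in neo/neo or neo/-. Of all genes tested, 8.16% and 11.5% were called. The median log2 fold change of the 16 factors was 0.43 in neo/neo and 0.30 in neo/-, against 0.01 and 0.00 over all genes tested. It was 0.42 and 0.30 without +/- replicate 2. Without +/- replicate 2, *Fezf2*, which is also a factor of deep-layer cortical neurons, was called higher in neo/neo (0.21 ± 0.06, adjusted p = 0.0405, edgeR) and *Gbx1*, the paralogue of *Gbx2*, lower in neo/- (-0.66 ± 0.18, adjusted p = 0.0351, edgeR). *Irx1*, *Irx2* and *Irx5*, of the same family as *Irx3*, read 5.21, 8.21 and 6.49 CPM in +/- replicate 2 and at most 0.844, 0.869 and 1.24 CPM in the other 11. Among 15 telencephalic factors, all tested, *Pax6* and *Dmrta2*, both of the cortical ventricular zone, were higher in neo/neo (0.19 ± 0.04 and 0.38 ± 0.09, adjusted p = 0.0199 and 0.0220, edgeR; 0.0235 and 0.00631 without +/- replicate 2) and 0 were called in neo/- with or without that library. Of the other Pax genes, *Pax6* was the only 1 of 4 that was tested at E12.5. Of 19 hindbrain factors, 1 was tested and it was not called.

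Some markers of other cells were called at E12.5. In neo/neo, 0 of 7 head mesenchyme, 0 of 7 neural crest and 0 of 6 telencephalon markers were called, and *Kdr*, of endothelium, was lower (-0.17 ± 0.04, adjusted p = 0.0236, edgeR, and 0.0214 without +/- replicate 2). In neo/-, 2 of 7 neural crest and 1 of 6 blood markers were called higher, with or without +/- replicate 2. Of all genes tested, 11.5% were called with that library and 12.3% without it. With all libraries, 0 of the head mesenchyme, endothelium and telencephalon markers were called in neo/-. The neural crest marker *Tfap2a* was higher in neo/- (0.94 ± 0.25, adjusted p = 0.0282, edgeR, and 0.00404 without +/- replicate 2). In neo/neo *Tfap2a* was at 0.78 ± 0.25 with all libraries (adjusted p = 0.0699, edgeR) and was called higher without +/- replicate 2 (0.78 ± 0.18, adjusted p = 0.0170, edgeR). The median log2 fold change of the 7 neural crest markers was -0.33 in neo/neo and 0.05 in neo/- with all libraries. Without +/- replicate 2 these medians were -0.33 and 0.04. The mesenchyme marker *Prrx1* was called lower in neo/- without that library (-0.28 ± 0.07, adjusted p = 0.0162, edgeR) and not with it (-0.27 ± 0.14, adjusted p = 0.239, edgeR). The lists for surface ectoderm, optic stalk and retina, and otic and nasal placode had 0 called in both, with or without that library. The summed neural crest markers lay between 21.8 and 23.4 CPM in +/+, 23.9 and 28.6 CPM in +/-, 19.7 and 26.4 CPM in neo/neo and 25.8 and 27.5 CPM in neo/-, so that all neo/- libraries were above all +/+ libraries. The summed blood markers lay between 2368 and 2775 CPM in +/+ and between 2894 and 4339 CPM in neo/-, also without overlap. *Pax3* and *Pax7* are also expressed in neural crest, and the part of these cells in their E12.5 values was not tested.

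Over the 12 libraries, the genes outside the 10 whose log2 CPM was most like the mean z-score of the 8 factors were *Zfhx4*, *Nova1*, *Esrrb*, *Pigk* and *Nav2*, with a Pearson r between 0.92 and 0.97 among 18145 genes. Without +/- replicate 2, over 11 libraries, they were *Ddc*, *Mfng*, *Zfhx4*, *Armh4* and *Smoc1*, with an r between 0.86 and 0.90, so that *Zfhx4* stood in both sets. The mean z-score was 1.70 in +/- replicate 2 and between -0.65 and 0.36 in the others. The median r over the 28 pairs of the 8 factors was 0.34 with that library and -0.06 without it.

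At E10.5, *Pax8* and *Pax5* were lower in all 3 cKO libraries than in any Ctrl library. *Pax8* read 0.761, 1.40 and 0.717 CPM in Ctrl and 0.355, 0.362 and 0.224 CPM in cKO, from 40, 71 and 40 counts against 21, 23 and 15. The log2 ratio of cKO to Ctrl was -1.62, and 3 of the 18435 genes in the fit had a lower one. This rank follows from the choice of *Pax8* for its fall in this contrast. *Pax5* read 6.57, 11.7 and 5.74 CPM in Ctrl and 3.55, 5.65 and 4.95 CPM in cKO, with a log2 ratio of -0.77 and a small gap between the groups. *Pax2*, the earliest of the 3 in development, read 1.31, 2.35 and 1.33 CPM in Ctrl and 1.96, 2.08 and 2.43 CPM in cKO, with a log2 ratio of 0.37 and overlap. Among all genes in the fit, 11.4% were called by edgeR and 32.4% had groups without overlap, as 2 of the 8 factors did, and nothing is read from this count since this contrast was used to choose the genes.

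*Barhl2* varied within both groups. It read 8.87, 6.09 and 3.16 CPM in Ctrl and 0.811, 1.26 and 5.51 CPM in cKO, so that cKO replicate 3 lay above Ctrl replicate 3. The log2 ratio was -1.25, and -2.54 without cKO replicate 3. *Gbx2* was near its lower limit of detection with 13 to 38 counts a library, and its log2 ratio of -0.40 became 0.06 without Ctrl replicate 1. The 15 to 23 counts of *Pax8* in the cKO libraries lay in the same low range.

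*Pax3*, *Pax7* and *Irx3* were the best expressed of the 10 in CPM at this stage. *Pax7* read 18.3, 32.8 and 20.6 CPM in Ctrl and 37.9, 44.9 and 26.2 CPM in cKO, a log2 ratio of 0.60 with overlap. *Irx3* read 17.2, 26.3 and 15.4 CPM in Ctrl and 30.6, 23.5 and 20.2 CPM in cKO, a log2 ratio of 0.33. *Pax3* lay between 16.4 and 28.1 CPM in both groups, with a log2 ratio of 0.12. In these 3 genes and in *Pax2*, *Pax5* and *Pax8*, Ctrl replicate 2 was the highest of the 3 Ctrl libraries. That library read 3.06 CPM of the female-specific *Xist*, and the other 5 between 707 and 2146 CPM, so the sex mix of the pools differed. It also had the highest Ctrl sums of neural crest markers (49.6 against 29.1 and 33.2 CPM) and placode markers (90.9 against 54.8 and 62.9 CPM). Its sum of other midbrain and isthmus factors was the highest too (437 against 360 and 373 CPM), and that of diencephalic factors the lowest (244 against 247 and 268 CPM). The part of sex and of other tissue was not tested. Without Ctrl replicate 2 the log2 ratio was -1.24 for *Pax8*, -0.38 for *Pax5*, 0.90 for *Pax7*, 0.60 for *Irx3* and 0.42 for *Pax3*.

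**Figure D4:**
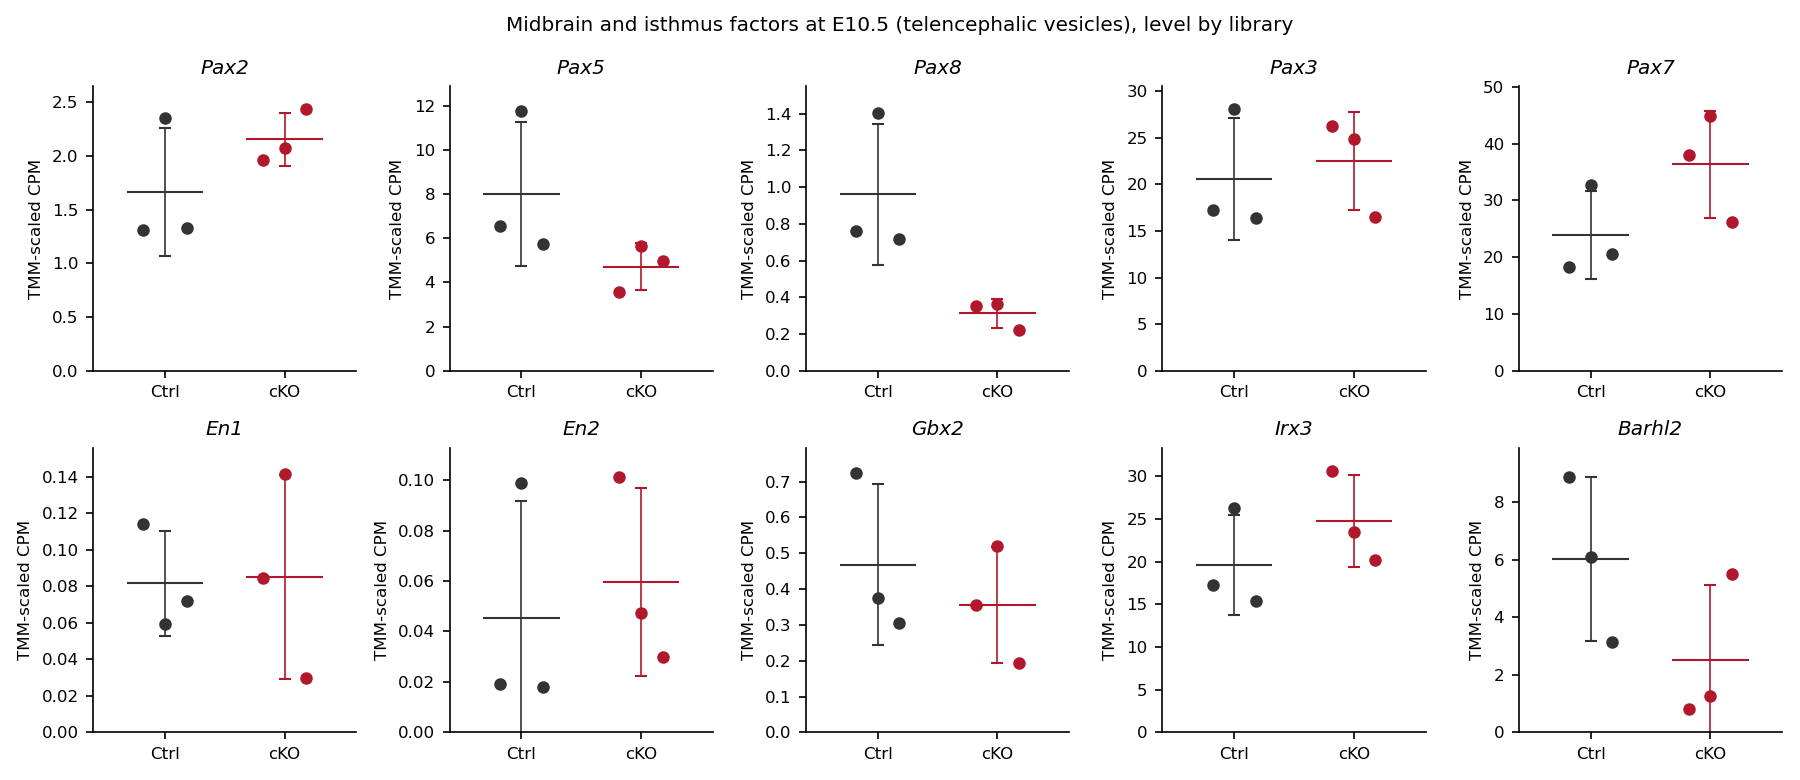
TMM-scaled CPM (y axis, linear) of each of the 10 factors in every E10.5 library of Ctrl and cKO (x axis). Points are libraries of 2 pooled embryos, lines group means and bars SD (n = 3). *Pax8* and *Pax5* do not overlap between groups, and *Barhl2* is lower in 2 of 3 cKO libraries than in any Ctrl library.

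Of the organiser signals and feedback genes, 17 of 18 were tested at E10.5, and edgeR called 2 lower and 1 higher. *Fgf8* read 14.5, 14.9 and 12.6 CPM in Ctrl and 8.58, 9.19 and 10.5 CPM in cKO (log2 fold change -0.58 ± 0.10, adjusted p = 0.00690, edgeR). *Cnpy1*, which supports FGF signalling at the isthmus, read 5.48, 5.73 and 3.55 CPM in Ctrl and 2.38, 2.63 and 2.49 CPM in cKO (-0.98 ± 0.18, adjusted p = 0.00673, edgeR). In both genes all cKO libraries were below all Ctrl libraries, and 32.4% of all genes tested had no overlap between these groups. *Etv4*, a transcriptional target of FGF signalling, was higher (0.39 ± 0.08, adjusted p = 0.0135, edgeR). *Fgf17* was at -0.18 ± 0.13 and did not pass (adjusted p = 0.406, edgeR), and *Wnt1*, under the filter, read 0.857, 0.554 and 0.0538 CPM in Ctrl and at most 0.104 CPM in cKO. *Fgf8* is also the signal of the anterior margin of the telencephalon, and bulk vesicles do not separate its sources.

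Of the midbrain and isthmus factors, 15 of 20 were tested, and 3 were higher and 0 lower. *Otx1* (0.39 ± 0.07, adjusted p = 0.00611), *Lmx1b* (0.53 ± 0.10, adjusted p = 0.00958) and *Lmx1a* (0.36 ± 0.10, adjusted p = 0.0377) were called by edgeR, and no cKO library of *Lmx1b* fell below 23.6 CPM, against at most 18.8 CPM in Ctrl. *Otx2* was at -0.22 ± 0.09 (adjusted p = 0.148, edgeR) and *Dmbx1* at 0.03 ± 0.66. None of the 15 diencephalic factors tested was called. Of 15 telencephalic factors, *Gsx2*, a factor of the ventral telencephalon, was lower (-1.43 ± 0.36, adjusted p = 0.0491, edgeR). The median log2 fold change was 0.14 over the organiser genes, 0.16 over the midbrain and isthmus factors and 0.09 over the diencephalic factors, against 0.00 over all genes tested.

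Mesenchyme markers moved with the groups at E10.5. The 7 head mesenchyme markers summed to between 771 and 858 CPM in Ctrl and between 985 and 1145 CPM in cKO. Of these, 3 of 7 were called higher, *Pdgfra*, *Col1a2* and *Col3a1* (0.41 ± 0.06, 0.40 ± 0.08 and 0.44 ± 0.10, adjusted p = 0.00142, 0.0130 and 0.0271, edgeR). Of all genes tested, 11.4% were called. The neural crest markers summed to between 29.1 and 49.6 CPM in Ctrl and between 41.7 and 53.8 CPM in cKO, with 0 of 7 called. *Eya2*, of the placodes, and *Cdh5*, of endothelium, were higher, each 1 called of its list, and the blood, optic, surface ectoderm and telencephalon lists had 0 called. *Pax3* and *Pax7* are also expressed in neural crest and mesenchyme of the head, and the part of these cells in their values was not tested.

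Over the 6 libraries of E10.5, the genes most like *Pax8* in log2 CPM were *Dmd*, *Nudt12*, *Slc25a26*, *2700097O09Rik* and *Slc13a4*, with a Pearson r of at least 0.99 among 18304 genes. Those most like the mean z-score of the 8 factors were *Tcea1-ps1*, *Zfp248*, *Gm17201*, *Gm12840* and *Gm14681*, with an r between 0.98 and 0.99. *Pax5* and *Pax8* had an r of 0.83, *Pax3* and *Irx3* of 0.89, and *Pax7* and *Barhl2* of -0.72. With 6 libraries in 2 groups these values are a description.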

How the data were processed

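Polyadenylated RNA of 18 libraries was sequenced as paired reads in 2 runs each, giving 36 samples. The authors trimmed reads with Trim Galore, aligned them with TopHat2 to GRCm38 and counted them on genes with featureCounts. The values deposited are raw counts per gene and run, which the authors did not normalise, and no strand option appears in the header of the E12.5 table. Runs were summed here. edgeR 4.0.16 in R 4.3.3 was used with filterByExpr, TMM scaling and robust quasi-likelihood fits, 1 fit of 12 libraries at E12.5 and 1 of 6 at E10.5, with Benjamini-Hochberg adjustment over all genes tested and a threshold of 0.05. The fits were tested on simulated data. CPM are TMM-scaled, log2 CPM have a prior count of 2, a fold change is on edgeR's log2 scale, and lengths are exon lengths of the tables. Promoters came from RefSeq (GRCm38.p6).

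The 10 genes, the lists and the naming rule were chosen with earlier results of these data known. By that rule all 10 genes were named, up to 4 called genes per list and comparison, *Fgf8*, *Fgf17*, *Wnt1*, *Otx2*, *Lmx1b*, *Dmbx1*, *Chd8*, and the 5 genes of highest correlation with the 8 factors (mean count of at least 10). *Tcf7l2*, *Irx1*, *Irx2*, *Irx5* and *Xist* were named after their values were seen. Alternatives were DESeq2 1.42.0, RLE and upper quartile scaling, no filter, a replicate block, only the 2 groups compared, each run alone, *Xist* as a covariate and each library left out, and the shared fit without +/- replicate 2 was added once its values were known. Deviations of same-numbered +/- and neo/neo libraries correlated at 0.11, 0.20 and 0.20, and no other comparison had every pair over 0.1. No source for a pairing is named, and the authors describe different crosses for these genotypes. These correlations therefore do not establish a pairing, and the replicate block was used as an alternative only. The replicates are separate embryos or pools from different litters. Results that name certain marker genes are not reported here.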

Additional observations from a re-analysis of the deposited data

How the results depend on the processing

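With 8 factors tested, the count called was 0 in each E12.5 comparison and stayed 0 under DESeq2 (which gave some of them no adjusted p), both other scalings, no filter, the replicate block, each run, the *Xist* covariate and each planned library left out. It became 2 in neo/neo and 2 in neo/- with only the 2 groups fitted, and 2 and 1 without +/- replicate 2, in which the spread that the groups share was smaller. At E10.5, 4 of the 8 ratios were below 0, and 3 to 5 with each library left out. The listed genes called moved under DESeq2 from 12 to 19 at E10.5, and at E12.5 from 4 to 10 in neo/neo, 3 to 6 in neo/-, 0 to 1 in +/-, 1 to 8 in neo/neo against +/- and 0 to 1 in neo/- against neo/neo; DESeq2 tested other genes. In neo/- they were 6 without +/- replicate 2.

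Values that did not pass the test changed sign as follows, and the cause was not tested. *Pax2* against +/+ ran from -1.29 to 0.11 in neo/neo, -0.86 to 0.27 in neo/- and -0.81 to 0.32 in +/- with each library left out (positive without +/+ replicate 3). *Barhl2* ran from -0.019 to 0.23 in neo/neo, -0.095 to 0.13 in neo/- and -0.10 to 0.36 in +/-. In +/-, *Pax3* ran from -0.25 to 1.57, *Gbx2* from -0.20 to 0.83 and *Pax7* from -0.43 to 0.62, each lowest without +/- replicate 2. In neo/neo against +/-, *Irx3* ran from -1.28 to 0.79, *Pax3* from -0.89 to 0.93, *Pax7* from -0.81 to 0.24 and *Barhl2* from -0.22 to 0.23, each highest without it, *Pax2* from -0.82 to 0.15, *Pax5* from -0.60 to 0.078 and *Pax8* from -0.33 to 0.40. There *Pax8* was -0.028 and *Barhl2* 0.0026 with the replicate block, *Pax8* -0.017 with DESeq2 and *Pax5* 0.0085 with run A alone. At E10.5, where no test is given, *Pax3* ran from -0.022 to 0.42 and *Gbx2* from -0.79 to 0.057 with each library left out. *Pax3* in neo/- was -0.018 with run A alone and *Pax5* in +/- 0.011 with run B alone. *Gbx2* in neo/- against neo/neo was -0.15 with run B alone, -0.22 with the *Xist* covariate and -0.15 to 0.21 with each library left out. In the replicate block, which matches libraries by number, 0 of 8 factors were called in neo/neo against +/-, and it changed no other call of a factor.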
